A study of Mus musculus with 15 samples.

Results

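The genes examined here are 10 genes of the integrated stress response: Atf4, Atf5, Ddit3, Ppp1r15a, Ppp1r15b, Trib3, Asns, Chac1, Sesn2 and Atf3. They were chosen by symbol, and all of their RefSeq transcripts in the count tables were taken, which gave 12 transcripts out of 28167. Ribosome-protected fragments had been sequenced from whole liver of wild-type male C57BL/6N mice aged 8 to 10 weeks. The mice were kept for 2 weeks in 12 h light and 12 h dark, moved to constant darkness, and from 24 h later sampled every 4 h at circadian times (CT) 0, 4, 8, 12, 16, 20 and 24. Each time point had 2 mice and 2 libraries, and no mouse received a stressor, a drug or a change of diet according to the labels. The time points were therefore the only groups, and all of them shared the genotype, the sex and the light cycle before darkness. Time in constant darkness rose with the time point, so the data do not tell these apart. The tables give reads in the 5′ untranslated region (5′UTR), the coding sequence (CDS) and the 3′ untranslated region (3′UTR) of each transcript, but not where in a region each read lies.

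The integrated stress response starts with kinases that phosphorylate the initiation factor eIF2, which slows translation of most mRNAs. A few mRNAs are known for the opposite behaviour because upstream open reading frames (uORFs) in their 5′UTR hold ribosomes away from the CDS in unstressed cells and let more of them through under stress. Atf4 is the classic case, and its product is a transcription factor that switches on genes of amino acid supply, redox balance and feedback control of eIF2. In liver the pathway is known mainly for responses to amino acid shortage and to stress of the endoplasmic reticulum.

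The start codons of the upstream frames are shown because the 5′UTR reads described below fall on the regions that hold them. A uORF was counted as an ATG with a stop codon in the same frame inside the 5′UTR, and a frame that runs past the first base of the CDS in another frame was called an overlapping ORF. Sequences were read 5′ to 3′ from the mouse genome GRCm38.p6 with its NCBI RefSeq annotation, each as 30 bases of the transcript with the upstream ATG, and a stop codon where the stretch holds it, in capitals.
Atf4, uORF of 3 codons on the plus strand, chr15:80255570-80255599: cttgcggccaccATGgcgtatTAGaggcag
Atf4, overlapping ORF of 59 codons on the plus strand, chr15:80255669-80256219 across an intron: ccggcctaagccATGgcgctcttcacgaaa
Atf5, overlapping ORF of 63 codons on the minus strand, chr7:44815484-44815513: attgaaatttttATGaagaggaataagatg
Ddit3, uORF of 34 codons on the plus strand, chr10:127290817-127290846: gtcgattatatcATGttgaagatgagcggg
Ppp1r15a, uORF of 26 codons on the minus strand, chr7:45526072-45526101: cctgagggcgacATGaacccgctggcttcg
Ppp1r15b, uORF of 51 codons on the plus strand, chr1:133131505-133131534: tccctagccgggATGgacctaaccgcggtc

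The transcription factors Atf4 and Atf5 had both kinds of upstream frame. In Atf4 the 3-codon uORF ended 184 nt before the CDS, and the 59-codon frame ran 83 nt into the CDS. The Atf4 transcript with the longer 5′UTR had a further uORF of 36 codons that ended 364 nt before the CDS. Atf5, a relative of Atf4, had 4 uORFs from 2 pairs of nested start codons, and 2 nested frames that ran 56 nt into its CDS. Ddit3 encodes the stress transcription factor CHOP. Its longer transcript had a 34-codon uORF, with a 31-codon frame nested in it, that ended 26 nt before the CDS. In the shorter Ddit3 transcript the same ATGs opened frames that ran 181 nt into the CDS. Ppp1r15a and Ppp1r15b encode the inducible and the constitutive partner of the phosphatase that removes phosphate from eIF2. Each had 3 uORFs, of which the closest ended 23 nt before the CDS in Ppp1r15a and 74 nt before it in Ppp1r15b. Atf3, a stress-induced transcription factor, and Sesn2, an inhibitor of mTORC1, had 1 uORF each. No upstream ATG was found in the 5′UTR of Trib3, a pseudokinase that feeds back on ATF4, or of Chac1, which degrades glutathione. The Asns lengths in the tables did not match the annotation, with a 5′UTR of 98 nt against 124 nt, and its sequence was not read. Asns encodes asparagine synthetase.

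Lengths were taken to match when both regions differed from the annotation by at most 1 nt per exon, which is why the 5′UTR of the longer Atf4 transcript is 595 nt in the tables and 594 nt in the annotation. An upstream ORF was present in 7 of the 9 genes whose lengths matched. Among all 23018 transcripts with matching lengths and a 5′UTR, 43.9% had at least 1 uORF and 17.3% had an overlapping ORF. These shares are per transcript and for each kind of frame, and the share of genes with either kind is not given. The genes with an overlapping ORF were Atf4, Atf5 and, in its shorter transcript, Ddit3. The CDS reads of these 3 genes can include ribosomes on the overlapping frames, which the counts do not separate from those on the coding frame.

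**Figure D1:**
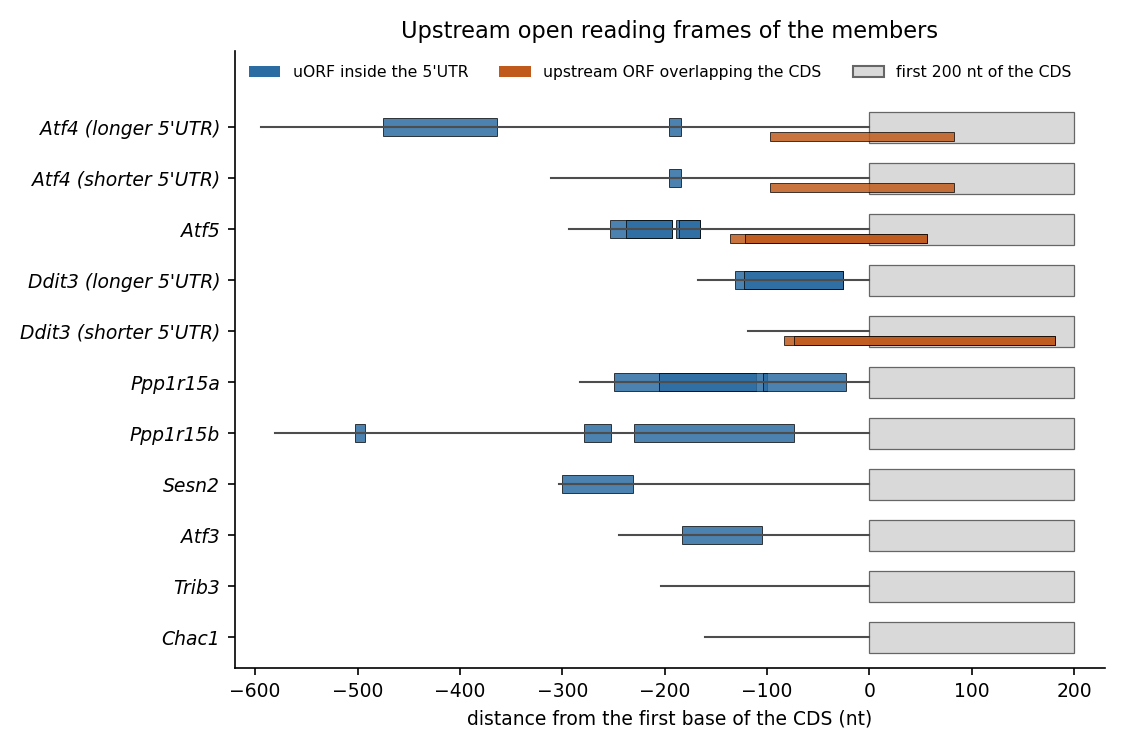
Upstream open reading frames of 9 members, drawn to scale with the distance from the first base of the CDS in nt on the horizontal axis. Lines are 5′UTRs, blue boxes are uORFs that end inside the 5′UTR, orange boxes are frames that overlap the CDS, and grey boxes are the first 200 nt of the CDS. Trib3 and Chac1 have neither kind of frame, and the frame of 59 codons in Atf4 ends 83 nt inside the CDS.

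Summed over all transcripts the libraries had 40593197 to 90458783 counts, and 5.72% to 9.74% of them lay in 5′UTRs. Reads that transcripts share can be counted more than once in these sums, and over 1 transcript per gene they were 33068623 to 75349112. The lowest 5′UTR share was in CT16 replicate 2, in which 100% of the nonzero counts were even, whereas the even share in 13 libraries was 45.69% to 50.02%, and the highest was in CT20 replicate 1. The counts of CT16 replicate 2 are given as deposited, although every one of them may be doubled, and with its counts halved no call of a member changed in the tests over time. Markers of hepatocytes summed to between 41006 and 56557 CPM (reads scaled to library size, with TMM factors), and markers of 6 other liver and blood cell types to between 2.17 and 139.6. The 4 pancreatic acinar markers in the tables summed to at most 31.1 CPM in 13 libraries and to 1645 CPM in CT20 replicate 2. Because these are bulk livers, a lower value can mean fewer cells that express a gene or less ribosome-bound RNA per cell, and the data do not tell these apart. Total RNA is not analysed here, so a change in footprints cannot be divided into mRNA level and translation.

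In Atf4, Atf5, Ppp1r15a and Ddit3 the 5′UTR carried more footprints than the coding sequence. Summed over the 14 libraries, the 5′UTR of the longer Atf4 transcript had 5258 reads and its CDS had 2728. Atf4 5′UTR reads per library ranged from 188 to 474 with a median of 391.5, and CDS reads from 111 to 283 with a median of 185.5. Every library had more Atf4 reads in the 5′UTR than in the CDS, although the 5′UTR spans 595 nt and the CDS 1052 nt. The 5′UTR of Atf5 had 15832 reads and its CDS 9252, with library values of 565 to 2103 and 266 to 1300. For Atf5 too, the 5′UTR led in 14 of 14 libraries. Ppp1r15a showed the same order in 14 of 14 libraries, with 665 reads against 175. Ddit3 showed it in 13 of 14 with 560 reads against 122, and only CT0 replicate 2 held more CDS reads than 5′UTR reads, 22 against 17. Of 13253 transcripts with a mean of at least 1 count in each region, 0.498% had more 5′UTR than CDS reads in all 14 libraries, and 2.73% had more when the libraries were summed.

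Reads per nucleotide were then compared within each library as log2 of the 5′UTR density over the CDS density, with a pseudocount of 0.5 reads. Ratios above 0 mean a denser 5′UTR. The Atf4 log2 ratio was 1.76 ± 0.40 (SD, n = 14 libraries), with a lowest value of 0.92 in CT16 replicate 2, a median of 1.80 and a highest of 2.29. The 5′UTR of Atf4 was thus 3.39-fold denser than its CDS, and 14 of 14 libraries lay above 0 (limma, adjusted p = 3.51e-09). The ratio for Atf5 was 2.33 ± 0.32 and ran from 1.98 to 2.96 around a median of 2.24, or 5.03-fold (adjusted p = 2.35e-11). All 14 values of both genes lay above the median log2 ratio of the 7640 transcripts tested, which was -0.86.

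The partners of the eIF2 phosphatase had unequal ratios. For Ppp1r15a the log2 ratio was 5.28 ± 1.76 (n = 14 libraries), with a lowest value of 3.72, a median of 4.76 and a highest of 9.10 (adjusted p = 2.03e-08). The highest values belong to the libraries with 0 or 1 CDS read, so that the upper end of this range rests on the pseudocount. Ppp1r15b had more reads in the CDS, 12468, than in its 5′UTR, 8366, and after division by length its ratio was 1.26 ± 0.49, from 0.46 to 1.87 (adjusted p = 8.08e-07). Its 5′UTR was denser than the CDS in 14 of 14 libraries even though only 1 library had more 5′UTR reads.

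In total 5 member genes had a mean of at least 10 reads in both regions, and 4 of them, Atf4, Atf5, Ppp1r15a and Ppp1r15b, were called denser in the 5′UTR. Over all 7640 transcripts tested, 13.2% were called in that direction and 59.6% in the other. The remaining gene was Trib3, with a ratio of -0.50 ± 1.04 that did not pass the test (adjusted p = 0.102), and 5 of 14 libraries above 0. For each of the 4 called genes the exact two-sided sign-flip permutation test over the 14 libraries gave p = 0.000122, the smallest it can give.

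The other 5 genes had too few reads for that filter and were tested with a mean of at least 1 count per region, at which 9.05% of 13253 transcripts were called denser in the 5′UTR and 63.5% denser in the CDS. Ddit3 had a log2 ratio of 4.35 ± 2.22 with a median of 3.77 and was above 0 in 14 of 14 libraries (adjusted p = 3.70e-06). It had 0 CDS reads in 3 libraries, CT4, CT12 and CT20 replicate 1, where the ratio depends on the pseudocount. Without a ratio per library, the summed reads put the density of its 5′UTR at 13.8-fold that of its CDS. Sesn2, Atf3 and Chac1 were called denser in the CDS, at -1.56 ± 1.56, -1.18 ± 1.79 and -0.95 ± 1.59 (adjusted p = 0.00228, 0.0273 and 0.0438). Asns stood at 0.64 ± 1.86, with 8 of 14 libraries above 0, and was not called (adjusted p = 0.230). Asns, Chac1 and Atf3 had only 80, 61 and 29 reads in their 5′UTRs over all libraries, so their ratios are imprecise.

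**Figure D2:**
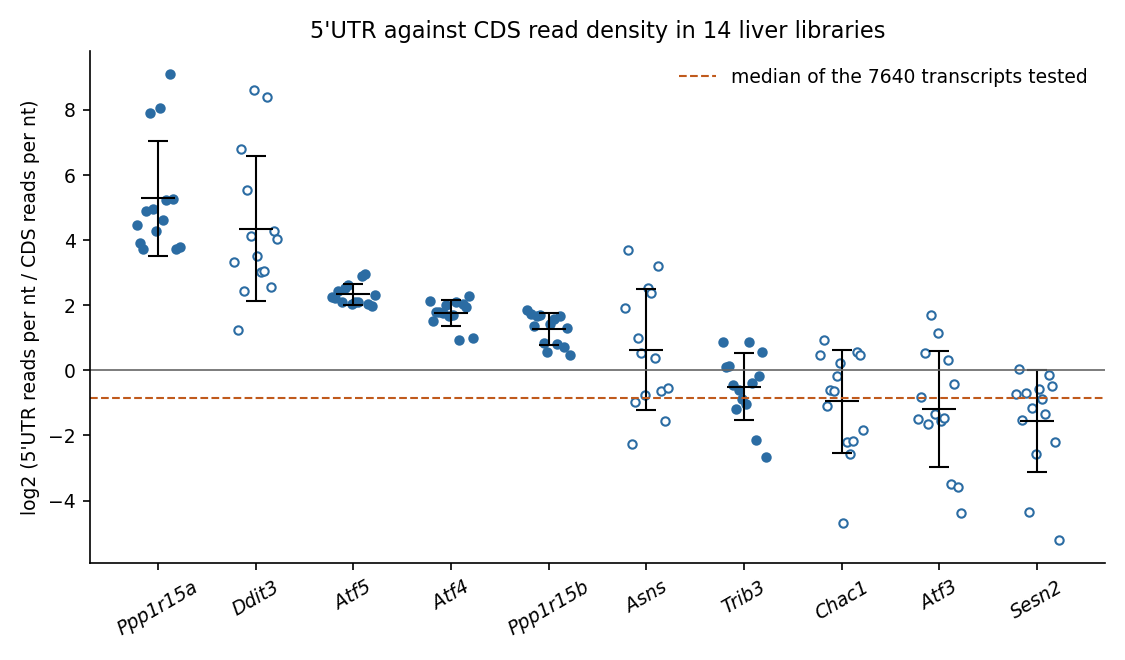
Reads per nucleotide in the 5′UTR over those in the CDS, as log2, for the 10 members in 14 libraries, with 1 point per library and bars for the mean ± SD. Filled points mark genes with a mean of at least 10 reads in both regions, open points the others, and the dashed line the median of all transcripts tested, at -0.86. All 14 points of Ppp1r15a, Ddit3, Atf5, Atf4 and Ppp1r15b lie above 0, whereas the points of the other 5 genes fall on both sides.

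The 5 members at the top of this order all had upstream frames, and across all transcripts the ratio also differed between classes of upstream frame, given here as a description. Among transcripts with a mean of at least 10 reads in each region, the median log2 ratio was -1.26 for 2442 without an upstream ORF, -0.92 for 1214 with 1 uORF, -0.58 for 1685 with 2 or more uORFs and -0.35 for 1308 with an overlapping ORF. The ratios of Atf4, Atf5, Ppp1r15a and Ppp1r15b all exceeded these medians. By the summed ratio, Ppp1r15a stood at percentile 99.9 of the 13253 transcripts whose mean count reached 1 in each region, Ddit3 at 99.8, Atf5 at 98.9, Atf4 at 97.5 and Ppp1r15b at 95.0. Sesn2 and Atf3, with 1 uORF each, stood at percentiles 43.1 and 42.0, so an upstream frame did not by itself go with a dense 5′UTR in this list.

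The 2 Atf4 transcripts allow the 5′UTR to be divided. They had identical CDS counts in every library, as if the same reads were counted for both. A stretch of 283 nt inside the longer 5′UTR, which is spliced out of the shorter one after a shared start and holds the 36-codon uORF, had 395 reads. The 311 nt that both share, with the 3-codon uORF and the start of the overlapping ORF, had 4863. The shared stretch had 15.6 reads per nt and the other 1.40, and the log2 difference was 3.93 ± 1.39 (SD, n = 14) with 14 of 14 libraries in the same direction. When only the shared stretch was set against the CDS, as in the shorter transcript, the log2 ratio was 2.57 ± 0.39. For Ddit3 the longer 5′UTR added 48 nt with 137 reads to 119 nt with 423 reads, and the densities of the parts did not differ beyond their spread, with a log2 difference of 0.55 ± 2.27 and 6 of 14 libraries above 0. Both divisions take a read common to the 2 transcripts to be counted in full for each, which is not stated in the sources used here.

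Levels in the CDS were compared as RPKM, which is CPM divided by the length of the region in kb. Atf5 was highest at 14.2 ± 6.38 RPKM (SD, n = 14 libraries of all time points), followed by Ppp1r15b at 7.72 ± 1.55 and Atf4 at 3.38 ± 0.79. Trib3 at 1.39 ± 1.65, Sesn2 at 1.22 ± 0.36, Chac1 at 0.796 ± 0.697 and Asns at 0.615 ± 0.578 came next. The place of Trib3 above Sesn2 rests on CT8 replicate 1, at 6.72 RPKM of Trib3, since Trib3 was higher in 5 of 14 libraries and the mean log2 difference was -0.33 ± 1.22. Atf3 at 0.369 ± 0.236, Ddit3 at 0.318 ± 0.241 and Ppp1r15a at 0.108 ± 0.0915 were lowest. Atf5 lay at percentile 82.5 of the 17023 transcripts tested for a rhythm, Atf4 at 56.5 and Ppp1r15a at 1.73. The difference between neighbours in this order was larger than its SD over libraries only for Ppp1r15b over Atf4 (log2 difference 1.20 ± 0.40) and Atf4 over Trib3 (1.81 ± 1.40). Atf5 and Ppp1r15b differed by 0.77 ± 0.88, with Atf5 higher in 11 of 14 libraries.

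The partners of the eIF2 phosphatase thus lay far apart at the CDS. Ppp1r15b exceeded Ppp1r15a by 6.77 ± 1.77 on the log2 scale per length, in 14 of 14 libraries. In their 5′UTRs the levels were closer, at 18.9 ± 5.34 RPKM for Ppp1r15b and 2.94 ± 1.17 for Ppp1r15a. The 5′UTR level of Ddit3 was 4.36 ± 1.93 RPKM, against a CDS level of 0.318. Atf4 had 11.6 ± 2.70 RPKM in the 5′UTR and Atf5 70.9 ± 29.9.

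Rhythms were tested in the CDS reads with a cosine of 24 h period in edgeR, adjusted over 17023 transcripts. Of the 9 member genes tested, 3 were called, Trib3, Atf5 and Ppp1r15b, and 10.8% of all transcripts were. Their fitted peaks fell at different times of day, in the afternoon of the subjective day for Trib3, at its start for Atf5 and in the subjective night for Ppp1r15b. Ddit3 had a mean of 8.71 CDS reads and was not tested.

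Trib3 had the largest swing of the called genes. Its CDS reads were 47 and 55 in the mice of CT0, 96 and 60 in those of CT4, and 525 and 129 in those of CT8. After CT8 they were 158 and 90 at CT12, then 35 and 30, 11 and 38, and 19 and 16 in the last 3 pairs of mice. Scaled by library, the mean of the CT8 mice was 4.69 ± 3.52 CPM (SD, n = 2) and that of the CT24 mice 0.359 ± 0.0782. With TMM the libraries of CT8 were the 2 highest, but replicate 1 of CT8 had 7.18 CPM against 2.20 in replicate 2. Scaled by total count, the lower CT8 library had 1.71 CPM, below the higher libraries of CT4 at 1.76 and CT12 at 1.87. With both scalings the CT8 libraries did not overlap those of CT16 to CT24, times grouped after the values were seen. The fitted peak was at 8.25 h and the fit spanned 3.20 log2 units from trough to peak (adjusted p = 0.000189). Without CT8 replicate 1 the rhythm was still called (adjusted p = 0.00578), and so it was in each of the 14 fits that left out 1 library, with peaks between 8.04 and 8.45 h.

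Atf5 CDS reads followed another course. They stood at 19.2 ± 5.21 CPM at CT0 and 18.5 ± 0.727 at CT4, then at 9.07 ± 2.55 at CT8 and 6.38 ± 1.48 at CT12 (SD, n = 2 mice each). From CT16 onward the means were 7.46 ± 2.64, 11.2 ± 0.384 and 13.0 ± 5.40 CPM. All 4 libraries of CT0 and CT4 exceeded all 6 of CT8 to CT16, a description of times grouped after the values were seen. At CT24 the replicates were apart, with 16.9 and 9.22 CPM. The fitted peak was at 1.56 h and the difference from trough to peak 1.50 (adjusted p = 0.000873), and the call held in all 14 fits that left out 1 library.

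Ppp1r15b varied less and in the opposite part of the day. At CT0, CT4 and CT8 it stood at 12.9 ± 0.00362, 12.7 ± 1.30 and 13.3 ± 0.262 CPM, and at CT12, CT16 and CT20 at 18.1 ± 0.584, 19.9 ± 0.262 and 18.4 ± 0.00553 CPM. The 6 libraries of the first 3 times lay between 11.7 and 13.6, below the 6 of the next 3 times, which lay between 17.7 and 20.1. These times were grouped after the values were seen, so this is a description. At CT24 the mice had 15.0 and 21.1 CPM. The fitted peak was at 16.9 h with a difference of 0.68 (adjusted p = 0.0222). The separation of these times rests on TMM. Scaled by total count, CT0 stood at 17.5 ± 2.01 CPM and CT12 at 14.7 ± 1.48, so that their order turned, the groups of 6 libraries overlapped, the fitted peak moved to 18.9 h and the call was lost (adjusted p = 0.0672). The call was lost as well without CT4 replicate 2 (0.0732). It was also lost without both CT20 replicate 1 and CT16 replicate 2, the libraries that stand apart by 5′UTR share and even counts (0.0663), and with JTK_CYCLE, a rank test for rhythms, on TMM-scaled values (0.0904), whereas JTK_CYCLE on counts per total count called it (0.0439) with a peak at 20 h.

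Chac1 had a fitted difference of 2.71 with a peak at 9.41 h, and its adjusted p of 0.0956 missed the threshold. Its CDS reads were 1 and 16 in the CT0 mice, 103 and 22 in the CT4 mice, 55 and 35 in the CT8 mice and 62 and 54 in the CT12 mice. They were 48 and 12 in the CT16 mice, and in the last 2 pairs 9 and 15, and 4 and 7. In CPM, the libraries of CT8 and CT12 all exceeded those of CT0, CT20 and CT24. This grouping was made after the values were seen and leaves out CT4 and CT16. CT16 replicate 2, at 0.252 CPM, lay below CT0 replicate 2, at 0.281. DESeq2 called Chac1 (adjusted p = 0.0208), and so did JTK_CYCLE, the test named in the study's methods (0.0297). Without CT4 replicate 1, the highest library, edgeR called it as well (0.0356). Chac1 was called in only 1 of the 14 fits that left out 1 library and in 3 of 13 other alternatives, and adjusted p reached 0.241 without both CT24 libraries.

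Atf4 itself showed no rhythm that passed the test. Its CDS means ranged from 2.95 ± 0.113 CPM at CT8 to 4.21 ± 1.08 at CT0, and the fitted difference was 0.35 (adjusted p = 0.592). By least squares on log2 CPM that difference was 0.30 ± 0.21 (SE), smaller than the 2.14 ± 0.38 for Trib3 and the 1.41 ± 0.27 for Atf5 by the same method. These values depend on TMM. Scaled by total count, the Atf4 means ran from 2.49 ± 0.197 CPM at CT8 to 5.63 ± 0.809 at CT0. With that scaling edgeR gave an adjusted p of 0.115. JTK_CYCLE on counts per total count gave 0.0636, not adjusted over transcripts. In the main fit neither Sesn2 (0.35, adjusted p = 0.752), Atf3 (1.59, 0.482), Ppp1r15a (0.70, 0.920) nor Asns (0.66, 0.911) was called, and for the last 3 the reads per library were few.

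**Figure D3:**
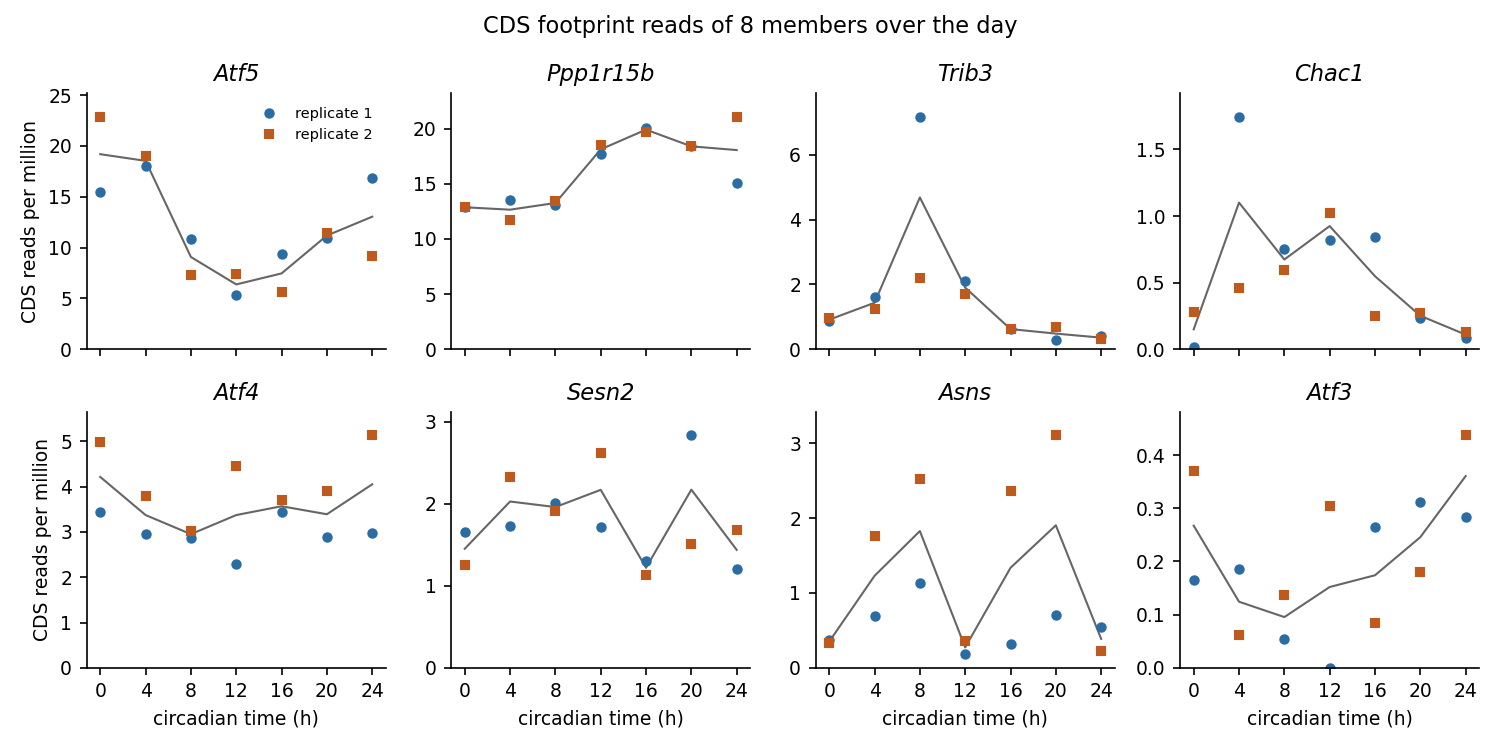
CDS reads in CPM, scaled with TMM factors, for 8 members against circadian time in h, with 1 point per mouse and a line through the mean of 2 mice. Trib3 is highest at CT8, where its replicates are 7.18 and 2.20, Atf5 is lowest at CT12 and Ppp1r15b is lowest at CT4, while Asns replicates lie far apart at CT16 and CT20.

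A test for any difference among the 7 time points, which assumes no cosine, called Trib3 (adjusted p = 0.00081) and Atf5 (0.00754), beside 6.84% of 17023 transcripts. Ppp1r15b missed the threshold at 0.0516, and was called without CT24 replicate 1 (0.0230), without CT24 replicate 2 (0.0409) and by DESeq2 (0.00191). Asns had an adjusted p of 0.135 and was called with total count scaling (0.0392), by DESeq2 (0.00578) and without CT16 replicate 1 (0.0495), while its replicates differed widely. Its CDS reads were 18 and 112 at CT16 and 27 and 173 at CT20. In CPM replicate 2 was also the higher one at CT4, CT8 and CT12, and replicate 1 at CT0 and CT24. CT20 replicate 2, with the most Asns at 3.11 CPM, was the library with 1645 CPM of pancreatic acinar markers. The libraries with 2.52 and 2.36 CPM of Asns, at CT8 and CT16, had 2.62 and 0.0421 CPM of those markers. The part of pancreatic RNA in the Asns values was not tested. Without CT20 replicate 2 the adjusted p for Asns was 0.122, and the calls of Trib3, Atf5 and Ppp1r15b in the cosine test were kept, at 0.000108, 0.00108 and 0.0353.

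The next comparison asked whether footprints moved between 5′UTR and CDS over the day. In the 5′UTR reads no member passed the cosine test in edgeR, and 1.12% of 7697 transcripts did. Atf5 was the one of 6 tested members with an unadjusted p under 0.05. Its 5′UTR reads stood at 31.2 ± 8.24 CPM at CT0, 30.7 ± 3.82 at CT4 and 9.29 ± 2.52 at CT12 (n = 2 mice), with a fitted peak at 1.34 h, close to the 1.56 h of its CDS, and a difference of 1.38 (adjusted p = 0.0730). DESeq2 did call it (adjusted p = 0.00629), as did edgeR when libraries were scaled by total count (0.0403) or CT24 replicate 2 was left out (0.0244). Atf4 5′UTR reads lay between 6.15 ± 3.10 CPM at CT16 and 8.36 ± 0.377 at CT0 (adjusted p = 0.876). Those of Ppp1r15b lay between 9.15 ± 1.54 at CT24 and 13.1 ± 4.90 at CT16 (adjusted p = 0.859).

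The share of reads upstream of the start codon, as the log2 ratio between both regions, was tested with limma in 7640 transcripts, and no transcript and none of the 5 tested members was called, which is 0.0% of those tested. At an unadjusted p under 0.05 there were 377 transcripts and none of the members. For Atf5 the mean log2 density ratio per time point stayed between 2.07 ± 0.0577 at CT12 and 2.57 ± 0.0498 at CT8. The fitted change of the ratio from trough to peak was 0.14 for Atf5, 0.16 for Atf4, 0.37 for Ppp1r15b, 0.29 for Trib3 and 1.96 for Ppp1r15a (adjusted p from 0.815 to 0.981). The median of this change over all transcripts tested was 0.85.

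**Figure D4:**
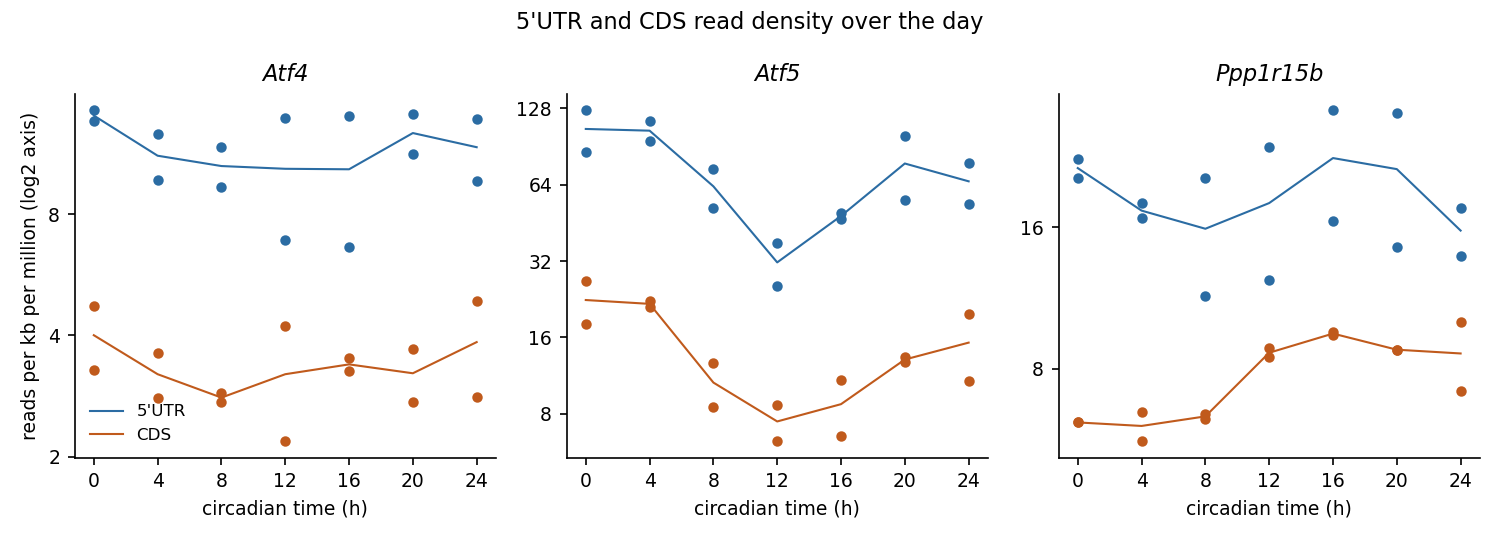
Read levels in RPKM, scaled with TMM factors, in the 5′UTR (blue) and CDS (orange) of Atf4, Atf5 and Ppp1r15b against circadian time in h, on a log2 axis, with 1 point per mouse and lines through the mean of 2 mice. The 5′UTR lies above the CDS at every time point, and both regions of Atf5 are lowest at CT12.

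Other genes of the pathway were taken from lists, and each is given through its CDS reads in the same cosine test. In a list of the kinases of eIF2, subunits of eIF2 and its exchange factor eIF2B, and Gcn1, which activates the kinase GCN2, 1 of 10 tested genes was called, close to the 10.8% of all transcripts. This was Eif2ak4, the kinase GCN2 that senses uncharged tRNA, at 2.49 ± 0.959 CPM at CT20 and 0.649 ± 0.00374 at CT12, with a peak at 22.2 h (adjusted p = 0.0192). The median fitted difference of the 10 genes was 0.28, against 0.45 over all transcripts tested. Of 5 genes tested for density 1 was called denser in the 5′UTR, against 13.2% of all transcripts tested, and this was Eif2s1, the alpha subunit of eIF2, named after its value was seen, at a log2 ratio of 0.96 ± 0.35 (SD, n = 14 libraries, limma adjusted p = 2.03e-06).

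Of the known ATF4 targets in amino acid supply, 3 of 13 tested were called, against 10.8% of all transcripts. The amino acid transporter Slc38a2 peaked at 11.4 h, with 59.8 ± 7.64 CPM at CT12 and 19.7 ± 1.91 at CT24 (adjusted p = 1.72e-05). The transaminase Gpt2 peaked at 15.6 h, with 152.1 ± 9.35 CPM at CT16 and 72.3 ± 8.05 at CT4 (adjusted p = 0.000568), a call that was lost with total count scaling (0.0718). Cth, the enzyme that makes cysteine from cystathionine, peaked at 0.43 h (adjusted p = 0.000876). Their peaks thus fell at different times of the cycle. None of the 6 genes of this list with enough reads in both regions was called denser in the 5′UTR by limma, against 13.2% of all transcripts tested, and their median log2 ratio was -1.88 against -0.86.

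Of the known ATF4 targets in stress signalling, 5 of 10 tested were called, against 10.8% of all transcripts. The fitted peak of 4 of them lay in the subjective night, as did that of 1086 of the 1833 transcripts called in all. Herpud1, a factor of protein degradation at the endoplasmic reticulum, peaked at 12.7 h with 251.8 ± 7.08 CPM at CT12 and 85.9 ± 33.6 at CT0 (adjusted p = 2.04e-05). Ddit4, an inhibitor of mTORC1, peaked at 21.2 h with a difference of 2.20 (adjusted p = 0.00351). The transcription factors Cebpb and Cebpg peaked at 13.2 and 16.6 h (adjusted p = 0.0181 and 0.0452), and neither was called with total count scaling (0.138 and 0.0984). Sqstm1, a receptor of autophagy, peaked at 1.34 h (adjusted p = 0.0483). None of these peaks lay within 2 h of the 8.25 h of Trib3. Fgf21 and Stc2 had too few reads to be tested. Of the 4 genes of this list with enough reads in both regions 1 was called denser in the 5′UTR, against 13.2% of all transcripts tested, and this was Ddit4 at a log2 ratio of 0.54 ± 0.71 (SD, n = 14 libraries, limma adjusted p = 0.0185).

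Other mRNAs known for uORF control gave no call in the cosine test. Of 6 tested with edgeR none passed, against 10.8% of all transcripts, and DESeq2 called none, against 13.8%. An unadjusted p under 0.05 was found for 2 of them and for 23.8% of all transcripts. Ifrd1 and Ibtk, named after their values were seen, were the 2 of 5 with a denser 5′UTR, at log2 ratios of 3.78 ± 0.86 and 1.18 ± 0.68 (SD, n = 14 libraries, limma adjusted p = 3.39e-10 and 2.96e-05), against 13.2% of all transcripts tested. Of the immediate early genes, which respond to handling and stress within minutes, 2 of 8 tested were called, against 10.8% of all transcripts. Dusp1, a phosphatase of MAP kinases, peaked at 17.9 h (adjusted p = 0.000901), and Junb, a subunit of AP-1, at 8.04 h (adjusted p = 0.00738), the latter not with total count scaling (0.120).

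Correlations between members across the libraries ran from positive to negative. Over the 45 pairs, Pearson's r of log2 CDS CPM in 14 libraries was highest for Atf4 with Ddit3, at 0.67, and Atf4 with Atf3, at 0.62, both of which have few reads. Trib3 and Chac1 followed at 0.59. The lowest value was -0.66 for Atf5 with Ppp1r15b, and Atf4 with Trib3 gave -0.36. These values are descriptions over libraries that share scaling and, in pairs, a time point. Among 7842 genes with a mean of at least 100 CDS reads, the profiles most like that of Atf4 were those of Iah1 (r = 0.92), Nudcd2 (0.82), Sgpp1 (0.81), Cops9 (0.80) and Drap1 (0.80).

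ATF4 binds composite sites with C/EBP factors, and the core TGATGCAA of this CARE element was searched on both strands of RefSeq promoters of GRCm38.p6, from 250 bases before to 50 after the start site. The core was found in 294 of 32851 promoters, or 0.895%, and in 2 of the 9 member genes in the table, Atf3 and Chac1. Both matches lie on the strand opposite to the gene, so the printed strand of the gene shows the reverse complement of the core in capitals, 110 to 103 bases before the start site in Atf3 and 193 to 186 bases before it in Chac1.
Atf3, chr1:191183436-191183443 (core), minus strand: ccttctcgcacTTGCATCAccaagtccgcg
Chac1, chr2:119351049-119351056 (core), plus strand: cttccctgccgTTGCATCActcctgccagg
A match is a run of letters and no measure of binding, and Trib3, the member with the largest called rhythm, had no match in this window.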

How the data were processed

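The deposited tables give, for each RefSeq transcript, the length of its 3 regions in nt and the number of reads in each, which are raw counts that the authors did not normalize. The submitters' processing notes name Bowtie2 2.1.0.0, SAMtools 0.1.19.0 and mm10, and the methods describe removal of rRNA reads, reads of 26 to 32 nt and assignment to an A site. How reads shared by transcripts were counted is not given in the sources used here. Of the 15 records 14 have a file, and the second record of CT16 replicate 2 has none of its own. How its reads entered the counts of that library was not tested. For the last pair the title, CT24, was used, although a time field reads CT00.

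Counts were fitted with edgeR 4.0.16 in R 4.3.3 (TMM, quasi-likelihood F tests, mean of at least 10 counts), and log2 ratios with limma 3.58.1, with Benjamini-Hochberg adjustment at 0.05. DESeq2 1.42.0, JTK_CYCLE rewritten in Python 3.11.15, other scalings, filters and pseudocounts, and each library left out were alternatives. The JTK_CYCLE p values were adjusted only for the peak times tried within a transcript. The steps were tested on simulated data. A gene was represented by its transcript with the highest mean CDS count. Named genes were the members, up to 6 called genes of each list by adjusted p, and the 5 genes most like Atf4. Members and lists were chosen with earlier results of these data known. The numbers of the replicates did not pair the mice (21 correlations between time points, -0.0958 to 0.264, 3 above 0.1).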

Additional observations from a re-analysis of the deposited data

Results flagged for a closer look

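Reads in 3′UTRs, which entered only the alternative rhythm test on whole-transcript counts, were above the limit of 3 counts that a count of 0 allows for 6 members. Summed over 14 libraries there were 99 for Ppp1r15b, 53 for Atf5, 9 for Ddit3, 7 for Sesn2, 7 for Trib3 and 5 for Atf3. Per nucleotide these were 0.571% of the CDS density for Ppp1r15b, 0.828% for Atf5 and 19.1% for Ddit3, whose CDS itself had only 122 reads. The reads of Atf5 came from 7 libraries with up to 24 in a single library, and those of Ppp1r15b from 13.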

How the results depend on the processing

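TMM and total count scaling differ by -0.55 to 0.44 on the log2 scale between libraries, so calls that need TMM are relative to that shift. The number of transcripts called in the CDS cosine test, 1833 in the main fit, was 1203 with 1 transcript per gene and 1405 to 1981 with 1 library left out. JTK_CYCLE, without adjustment over transcripts, called 3725 on total-count and 2974 on TMM-scaled values. In the 5′UTR the 86 calls became 180 with DESeq2, 147 with a minimum of 1 count and 54 with 1 transcript per gene, and 50 to 92 with 1 library left out. There the members called went from 0 to 1, Atf5, with total count, DESeq2, minimums of 1 and 100, without both CT24 libraries, and without CT20 replicate 1 and CT16 replicate 2, the last chosen after seeing the data, with 96 transcripts called. Leaving out 1 library gave 0 to 1. Among time points the 1164 calls became 2216 with total count, 2069 with DESeq2 and 713 with 1 transcript per gene, and members called went from 2 to 5 with DESeq2. The 1008 transcripts denser in the 5′UTR became 357 with a minimum of 100 counts and 659 with 1 transcript per gene. Fewer transcripts were tested under the last 2 settings, and the JTK_CYCLE calls had no adjustment over transcripts. Beyond this the cause was not tested. With the replicate number as a block, 1781 CDS and 78 5′UTR rhythms and 1219 differences among time points were called, with 3, 0 and 2 members, and no call of a member changed. No test result of a member reversed under the alternatives run, although the order of CT0 and CT12 in Ppp1r15b turned with total count. Depth limits Ddit3, Ppp1r15a, Atf3, Chac1 and Asns most, each with a median of 26 or fewer CDS reads per library.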
